A study of Mus musculus with 8 samples.

Results

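Messenger RNAs of the translation machinery were examined in a YTHDF3 RNA immunoprecipitation sequencing (RIP-seq) experiment, in which RNA bound to YTHDF3, a cytoplasmic reader protein of N6-methyladenosine (m6A), was recovered with an antibody (IP) and compared with input RNA. A total of 190 peaks, out of 87096 peaks kept in the 4 IP lists, carried the name of a ribosomal protein gene or of a translation factor gene. These were 75 peaks named after 17 ribosomal protein genes (symbols that begin with Rpl, Rps or Rplp followed by a number) and 115 peaks named after 29 translation factor genes (symbols that begin with Eif or Eef followed by a number). In the GENCODE vM21 annotation of the mouse genome (mm10) the same rules find 82 ribosomal protein genes and 68 translation factor genes among 21924 protein-coding genes. The translation factor rule also takes in regulators that carry the same symbols, such as the eIF2 kinases, the eIF4E-binding proteins and the eEF2 kinase.

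The cells were wild-type mouse embryonic fibroblasts (MEFs) of the C57BL/6 strain, isolated from embryos at day 13.5 and used at passages 5 to 6. They were either left untreated in complete medium (normal) or kept in nutrient-deprived medium for 2 h (starved), with 2 replicates per condition, and the 4 IP libraries were made with anti-YTHDF3. Whether the replicates came from separate embryo isolations is not stated, so that p-values measure the spread between these libraries. Peaks had been called in each IP library against an input, and a peak was kept when the IP/input fold was at least 2 and the p-value was under 0.0001. The 2 normal lists held 17364 and 21943 kept peaks and the 2 starved lists 23088 and 24701, with between 8818619 and 19271667 IP reads inside kept peaks. These sums are not library depths, which the lists do not give. Where an input held 3 reads or fewer, the fold was set against 3 reads and gives a lower bound. Between 14.0% and 25.4% of the kept peaks of a list were of this kind, the highest share being that of starved replicate 1. Among markers of the labelled cell type, 4 of 8 fibroblast genes carried a kept peak on an exon, Pdgfra and Pdgfrb in all 4 lists, while Col1a1, Vim, Thy1 and Fn1 had none. No leukocyte or epithelial marker carried a peak (0 of 3 and 0 of 4), and 1 of 3 endothelial markers did (Kdr, in all 4 lists).

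Ribosomal proteins form the small (Rps) and large (Rpl) subunits of the ribosome, and their mRNAs are short, very abundant and controlled together at the level of translation by the mTORC1 pathway. Initiation factors (eIFs) bring the small subunit and the initiator tRNA to the mRNA, and elongation factors (eEFs) deliver aminoacyl-tRNA and move the ribosome along. Nutrient loss acts on this machinery through proteins, since eIF2 kinases phosphorylate eIF2, eIF4E-binding proteins sequester the cap-binding factor eIF4E when mTORC1 is inactive, and eEF2 kinase phosphorylates eEF2. YTHDF proteins bind m6A, which is placed mostly in the sequence context DRACH, of which GGAC is the commonest core, and often lies in long exons and near stop codons.

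The deposited gene name of a peak is that of the gene with the nearest start site, and it was compared with the annotated exon under the peak. For the ribosomal protein genes the name and the exon differed almost throughout. Of the 75 peaks, 69 (92.0%) lay on exons of another protein-coding gene and on none of the named gene. Another 4 peaks lay on no protein-coding exon, 1 lay in an intron of Rpl5 and 1 lay on an exon of Rps28, which is shared with the overlapping gene Kank3. Among all 76240 kept peaks named after an annotated protein-coding gene, 61.7% overlapped an exon of the named gene and 31.6% lay only on exons of another gene. For the translation factors 48 of 115 peaks (41.7%) overlapped an exon of the named gene and 57 (49.6%) lay only on exons of another gene.

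**Figure D1:**
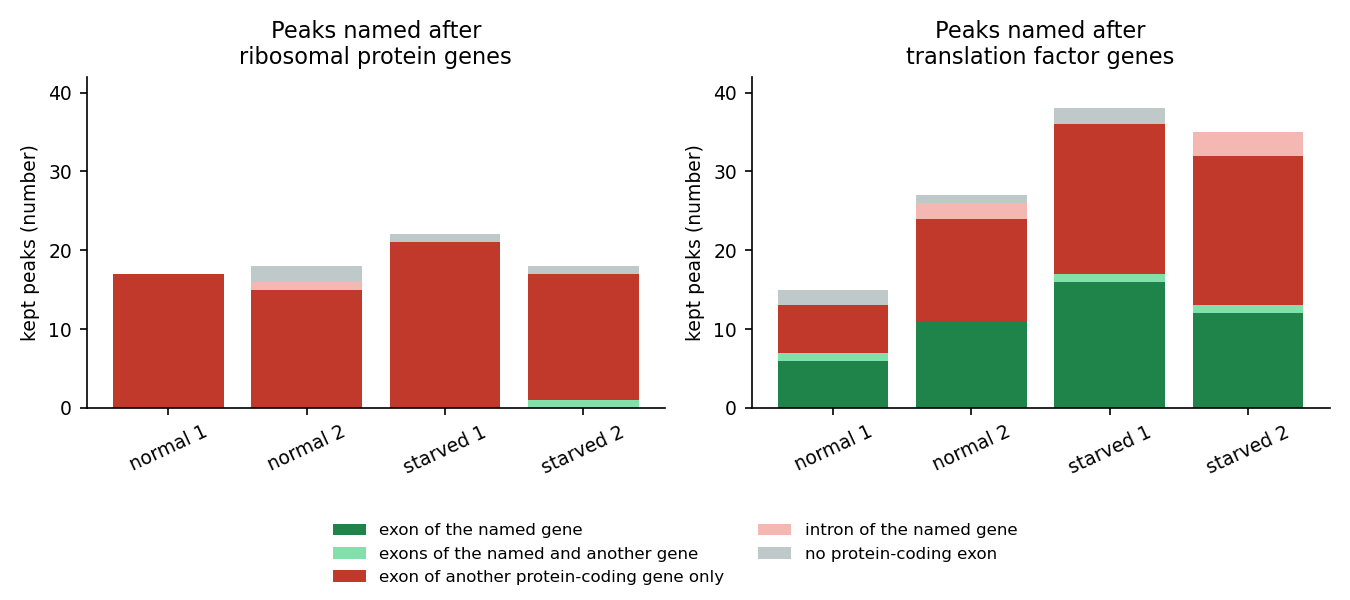
Stacked bars give the number of kept peaks in each IP list that were named after ribosomal protein genes (left) or translation factor genes (right), split by the exon or intron on which the peak lies. In every list most peaks named after ribosomal protein genes lay on an exon of another gene only (15 to 21 peaks), whereas 6 to 16 peaks named after translation factor genes lay on an exon of the named gene alone.

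Several of the names with most peaks belonged to genes beside a neighbouring transcript that held all of their peaks. All 15 peaks named after Rpl30 lay on exons of Matn2 (matrilin 2, a matrix protein), all 12 named after Rplp0 on Pxn (paxillin, a focal adhesion protein), all 11 named after Rps6 on Dennd4c, all 10 named after Rpl7l1 on Bicral, all 8 named after Rpl27 on Rundc1 and all 5 named after Rpl8 on Zfp647. Among the translation factors, the 15 peaks named after Eef1g lay on Tut1 (a terminal uridylyltransferase), the 9 named after Eif4ebp3 on Ankhd1 and the 3 named after Eif1ax on Rps6ka3. The 27 peaks named after Eif3j2 lay on Spg11, on the neighbouring eIF3 gene Eif3j1 or on no protein-coding exon. By contrast, all 7 peaks named after Eif2ak3, all 7 named after Eif2ak4 and all 6 named after Eif4g1 lay on exons of the named gene. Of the 8 named after Eif4g3, 4 did. Eif4g2, a relative of Eif4g1 that the study also examined as a protein, had 1 named peak, of 16 IP and 0 input reads in an intron of the gene in starved replicate 2.

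Peaks sharing 1 bp or more were joined, which gave 39979 regions, of which 6531 were called in all 4 lists. Of the regions named after the families, 6 were called in all 4 lists, and each of these 6 lies on exons of a neighbour, with 1 exception in 1 list given below for Spg11. To show which transcript they sit on, 30 bases around the GGAC nearest to the centre of each region, within an exon of the neighbour, are given 5′ to 3′ on the strand of that gene from the mm10 genome, with GGAC in capitals.
Rundc1, in a region named after Rpl27, chr11:101434692-101434721, plus strand, 3′ UTR: agaaacagtatcaGGACcagaggtgtagct
Matn2, in a region named after Rpl30, chr15:34428783-34428812, plus strand, coding sequence: cgtgttcaccgacGGACgggctcaggatga
Bicral, in a region named after Rpl7l1, chr17:46800065-46800094, minus strand, 3′ UTR: aggcttttgaacgGGACtctggccttgttc
Tut1, in a region named after Eef1g, chr19:8964579-8964608, plus strand, coding sequence: aagttgatggctgGGACtgtagcttcccta
Tut1, in a further region named after Eef1g, chr19:8965592-8965621, plus strand, coding sequence: agggatgtgcaggGGACcacagtgaaaatg
Spg11, in a region named after Eif3j2, chr2:122064936-122064965, minus strand, coding sequence: ccgcacagcctgaGGACctggagagcccga
A region joins peaks of different extent. The Rundc1 and Bicral sites lie inside a peak of all 4 lists, the Tut1 and Spg11 sites inside peaks of 3 lists and the Matn2 site inside peaks of the starved lists. The Bicral region held 12 such GGAC sites in its exons and the Matn2 region held 1. In a 200 bp window at the centre of the region, GGAC was present in 1 of the 3 regions named after ribosomal protein genes and in 1 of the 3 named after translation factors, against 61.9% of the regions called in all 4 lists that lie on protein-coding exons. So few regions carry little weight. Over all regions with these names, in any list, GGAC was present in 25 of 36 (69.4%) for ribosomal protein genes and in 34 of 63 (54.0%) for translation factors. A GGAC is a match of letters and not a measured m6A site.

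These 6 regions were measured in all 4 lists and could be compared between normal and starved MEFs. In the Rundc1 region (named after Rpl27) the IP/input fold of the highest peak was 4.79 and 3.44 without starvation, against 3.83 and 5.28 with it, and the groups overlapped. The 3.83 belongs to a peak deposited under another neighbour, Ptges3l. The peaks of starved replicate 1 named after Rpl27 had folds of 3.53 and 3.05. The Matn2 region (named after Rpl30) had folds of 2.86 and 2.46 in normal and of 2.21 and 2.26 in starved MEFs. The Bicral region (named after Rpl7l1) had folds of 3.60 and 4.15 in normal MEFs. Starved replicate 1 had 8.57, a lower bound from a peak with 2 input reads, and starved replicate 2 had 2.98. The peak of 8.57 lies at 1 end of the region, away from the highest normal peaks. Over the stretch of those normal peaks starved replicate 1 had a fold of 3.19. Only the Matn2 region kept the starved values below the normal ones in this group, and its peaks covered shifted stretches. In replicate 2 the normal peak ended at position 34428620 and the starved peak began at 34428591. The Tut1 regions (named after Eef1g) had folds of 2.87 and 2.88 in normal against 4.13 and 4.19 in starved MEFs for the region nearer to the gene start, and of 3.17 and 2.16 against 2.49 and 2.49 for the other. The highest peaks of the nearer region did not cover the same bases in each list. Over its upstream stretch the folds were 2.87 and 2.80 in normal MEFs and 2.95 in starved replicate 2, while the single peak of starved replicate 1 (4.13) spans most of the region. Over its downstream stretch the highest peaks of replicate 2 overlapped. They had folds of 2.88 in normal MEFs (49 IP and 17 input reads) and 4.19 in starved MEFs (44 and 7). Normal replicate 1 had no kept peak there. The Spg11 region (named after Eif3j2) had folds of 2.22 in normal replicate 2 and of 2.91 and 2.19 in starved MEFs. Normal replicate 1 joined this region only by a 200 bp peak at its far end, on no protein-coding exon, with 15 IP and 0 input reads and a fold of 4.03 (a lower bound). Its reads over the Spg11 exons are not known.

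None of the 6 regions moved by 1.8-fold or more the same way in replicates 1 and 2, where 0.367% of the 6531 regions were higher and 0.352% were lower in starved MEFs. In edgeR's quasi-likelihood test of the IP/input ratio, with Benjamini-Hochberg adjustment over the 6531 regions, none of the 6 was called (background 0.0153% higher and 0% lower). The largest log2 difference, starved minus normal, was 0.40 (SE 0.37) in the Tut1 region nearer to the gene start, with an unadjusted p of 0.286 and an adjusted p of 0.999, and 0 of the 6 had an unadjusted p under 0.05, as against 183 of all regions. The median log2 difference of the 6 was -0.10. For the IP reads per covered base none of the 6 was called, against 0.0919% of all regions higher and 0.750% lower, and the log2 differences ran from -0.51 (Rundc1, SE 0.29, adjusted p = 0.654 in edgeR) to 0.35 (Spg11, SE 0.49, adjusted p = 0.889). For the input reads per covered base none was called either (background 0.230% higher and 0.995% lower), with differences between -0.68 and 0.45. In IP and in input reads 0 of the 6 had an unadjusted p under 0.05, as against 644 and 525 of the 6531 regions. DESeq2 and limma also called 0 of the 6 in each comparison. Over all regions DESeq2 called 1 higher and 0 lower in the ratio, 67 and 113 in IP reads and 42 and 83 in input reads. Limma called 1 region lower in IP reads and 0 in the other comparisons. In such bulk samples fewer cells that hold an RNA and less of it per cell cannot be told apart. Without normal replicate 2, the Spg11 region was called higher in IP reads (log2 difference 1.71, adjusted p = 0.0185 in edgeR) and in input reads (8.85, adjusted p = 0.000792). The lone normal value is then that of the far end, so that these calls compare different stretches. The Spg11 values of the tests above share this fault.

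When a peak was counted for a gene only if it lay on an exon of that gene, whatever its deposited name, 6 of 82 ribosomal protein genes (7.32%) carried a kept peak in any list and none carried one in all 4 lists. The background over all protein-coding genes was 31.0% in any list and 14.1% in all 4 lists. Of the translation factor genes, 24 of 68 (35.3%) carried a peak in any list and 2 (2.94%) in all 4 lists. By deposited name the shares were 17 of 82 (20.7%) and 29 of 68 (42.6%), with a background of 34.6%.

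**Figure D2:**
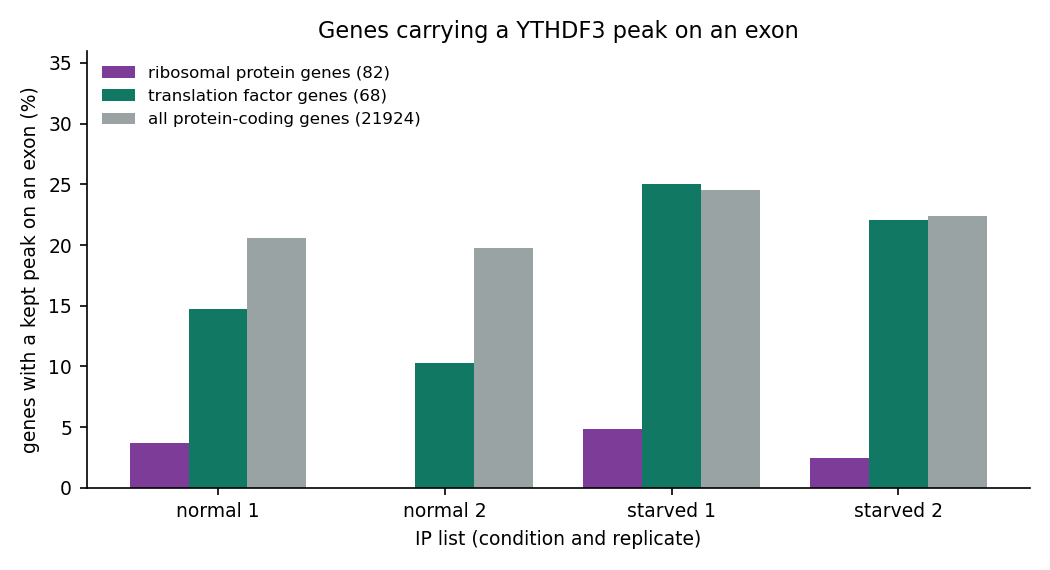
Bars give, for each IP list, the percentage of genes with at least 1 kept peak on an exon among the 82 ribosomal protein genes, the 68 translation factor genes and all annotated protein-coding genes. The ribosomal protein genes stay at or under 4.88% in every list, below the 19.8% to 24.6% of all protein-coding genes, and the translation factor genes range from 10.3% to 25%.

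The 6 ribosomal protein genes gave 11 peaks, and most of these touched a ribosomal protein exon only at its edge or under an overlapping gene. Rpl18 (a large subunit protein) had 5 of the 11, in normal replicate 1 and both starved lists, all on the 5′ UTR of a long Rpl18 transcript that runs over Sphk2, a sphingosine kinase gene. Its region called in 3 lists held 86 IP and 28 input reads in normal replicate 1, 131 and 23 in starved replicate 1, and 64 and 14 in starved replicate 2, with folds of 2.48, 2.44 and 3.05. Rpl7a (large subunit) was touched over 17 bp by a peak on Med22 with 1137 IP and 239 input reads in starved replicate 1. Rps18 (small subunit) was overlapped by a peak shared with Vps52 in 1 normal and 1 starved list, with 22 and 71 IP reads, and Rps28 by the Kank3 peak of 34 IP reads. Peaks on exons of a ribosomal protein gene and of no other gene were found for 2 of 82 genes (2.44%, background 28.4%). These were Rpl7l1, a paralogue of the large subunit protein Rpl7, with 25 IP and 0 input reads in its 3′ UTR in starved replicate 1, and Rps14 (small subunit), with 31 IP and 2 input reads over 43 exonic bp in normal replicate 1. The exons under the Rps14 and Rps18 peaks lie outside the transcript of the gene with the longest coding sequence. Rps27a, Rpl11 and Rpl23, whose proteins were examined in the study, carried no kept peak on an exon in any list. The lists hold called peaks alone, so that a gene without a peak may have missed the fold or, with few reads, the p-value, and the reads on its mRNA are not known here.

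By role, a peak on an exon was found for 2 of 5 genes of eIF1 and eIF1A, 3 of 11 of the eIF2 group, 3 of 4 eIF2 kinases, and 2 of 14 genes of eIF3. It was found for 5 of 12 genes of the eIF4 group, 2 of 4 eIF4E-binding proteins, 3 of 5 genes of eIF5 and eIF6, 2 of 7 of eEF1 and eEF2 and 2 of 6 of the eEF2 kinase and methyltransferases. The share over all protein-coding genes was 31.0%, and 59.5% for transcripts above 4000 nt, where all 4 eIF2 kinases fall. The genes named are those with most IP reads in each role, up to 3 a role, together with Eif3a and Eif4b, which the study examined as proteins, whereas Eif4e2 and Eif4h are named after their values were seen.

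**Figure D3:**
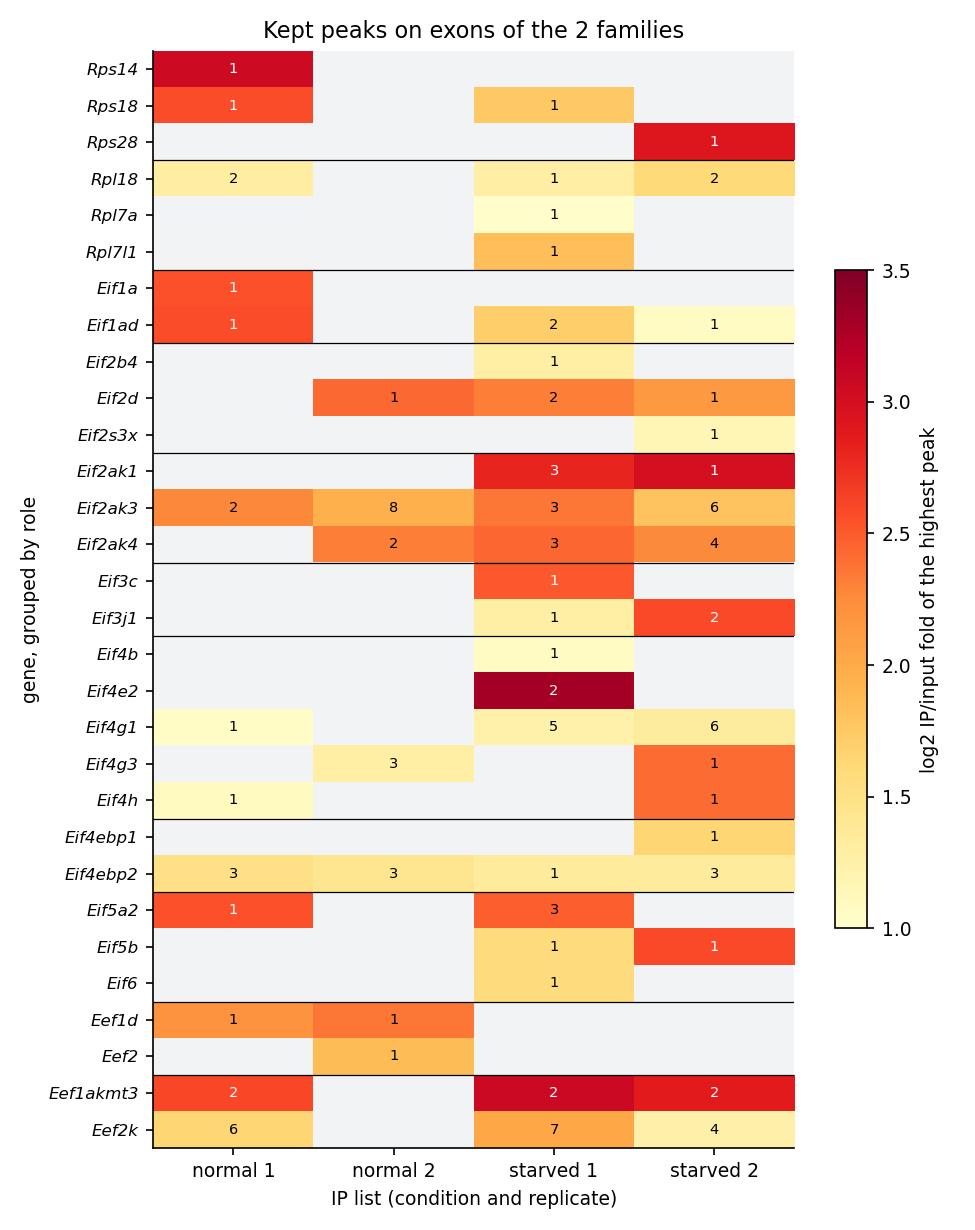
Rows are the 30 genes of both families with a kept peak on an exon, grouped by role, and columns are the 4 IP lists. Colour gives the log2 IP/input fold of the gene's highest peak, the printed number gives its count of kept peaks, and grey marks no kept peak. Only Eif4ebp2 and Eif2ak3 are filled in all 4 columns, and no ribosomal protein gene is.

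Eif4ebp2, which encodes an eIF4E-binding protein that holds back cap-dependent initiation, carried the one region on an exon of either family that was called in all 4 lists. The region (chr10:61428491-61434040, deposited under the name of the neighbouring gene Nodal) covers the long 3′ UTR. Normal MEFs showed 1243 and 1769 IP reads per kb there and starved MEFs 2239 and 2226, while the input gave 355 and 706 reads per kb in normal and 377 and 585 in starved MEFs. The IP levels of the starved libraries lay above those of the normal libraries before scaling, and the IP/input folds, of 2.83 and 2.5 in normal and 2.55 and 2.54 in starved MEFs, overlapped. In edgeR the log2 difference of the IP/input ratio was -0.09 (SE 0.17, 95% interval -0.44 to 0.25, adjusted p = 0.999), and that of the IP reads after TMM scaling was -0.11 (SE 0.19, adjusted p = 0.915). The coding exons of Eif4ebp2 carried further regions in normal replicates 1 and 2 and in starved replicate 2, with folds of 2.48, 2.71 and 2.41 at the start of the gene and of 2.5, 2.09 and 2.5 in the middle exon.
Eif4ebp2, GGAC site in the 3′ UTR region, chr10:61431371-61431400, minus strand: ccctcacttccagGGACgagcctattctga
Eif4ebp2, GGAC site in the region at the gene start, chr10:61452435-61452464, minus strand: cgcagctacctcaGGACtactgcaccacgc
Eif2ak3, GGAC site in the region at the gene start, chr6:70844919-70844948, plus strand: aagtgaccgtggaGGACgccgaggcattgc
Eef2k, GGAC site in the 3′ UTR region, chr7:120903714-120903743, plus strand: gcctttgcaggcaGGACtcacatctcaggg
Eif4g1, GGAC site in the 3′ UTR region, chr16:20692482-20692511, plus strand: cagccagccgcctGGACtgcaggggggcgg
These sites are shown because their regions are among the 8 of the family that were called in 3 or 4 lists. The Eef2k site lies inside the peak of starved replicate 1 alone and the Eif2ak3 site inside those of normal replicate 2 and starved replicate 2. The Eif4ebp2 and Eif4g1 sites lie inside a peak of every list in which their region was called. The 3′ UTR region of Eif4ebp2 held 21 GGAC sites, and the mRNA of Eif4ebp2 holds 24 in 5784 nt. Eif4ebp1, the other well-known binding protein, carried 1 peak of 14 IP and 0 input reads in starved replicate 2.

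The eIF2 kinases, which lower initiation under stress, carried peaks in 3 of 4 genes. Eif2ak3 (PERK, the kinase of endoplasmic reticulum stress) had 19 peaks in 13 regions, with 2 and 8 peaks in the normal lists and 3 and 6 in the starved lists. In its region at the gene start normal replicate 1 held 50 IP and 13 input reads, normal replicate 2 held 178 and 46, and starved replicate 2 held 283 and 61, with folds of 3.10, 3.87 and 3.09. Eif2ak4 (GCN2, the kinase that senses uncharged tRNA) had 9 peaks in 9 regions, none of them shared between lists, with 2 in normal replicate 2 and 3 and 4 in the starved lists. Eif2ak1 (HRI, the haem-regulated kinase) had peaks in the starved lists alone, as did 1343 of the 6787 protein-coding genes with a peak on an exon. Its 3′ UTR region held 49 IP and 0 input reads in starved replicate 1 and 36 and 2 in starved replicate 2, so that both folds (7.0 and 8.0) are lower bounds. Eif2ak2 (PKR), the remaining kinase, had no kept peak.

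Eef2k, the kinase that slows elongation by phosphorylating eEF2, had 17 peaks in 11 regions. Normal replicate 1 held 6 of the peaks and the starved lists 7 and 4, whereas normal replicate 2 held none. In the 3′ UTR region the folds were 3.12 in normal replicate 1 and 2.04 and 2.19 in the starved lists. Eef1akmt3, a methyltransferase of the elongation factor eEF1A, showed the same lists, with folds of 6.09 in normal replicate 1 and 8.39 and 7.33 in the starved lists in its main region, from 83, 137 and 66 IP reads.

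Among the initiation factors that bind the cap, unwind the 5′ UTR or bridge to the ribosome, Eif4g1, the scaffold of the cap-binding complex, had 12 peaks in 7 regions, 11 of them in the starved lists and 1 in normal replicate 1. All 12 folds lay between 2.03 and 2.5, close to the threshold of 2. The 3′ UTR region was the only one called under both conditions, with 1537 IP and 603 input reads in normal replicate 1 (fold 2.06), 3128 and 613 in starved replicate 1 (2.19) and 3115 and 945 in starved replicate 2 (2.20). Within replicate 1 this is a log2 difference of 0.09 in the IP/input fold. Eif4g3, a paralogue of Eif4g1, had 3 peaks in normal replicate 2 and 1 in starved replicate 2. The starved peak, of 24 IP and 2 input reads, lies outside the exons of the Eif4g3 transcript with the longest coding sequence. Eif4b, a cofactor of the helicase eIF4A, had 1 peak on the 5′ UTR in starved replicate 1, with 610 IP and 124 input reads and a fold of 2.11. Of the 14 eIF3 genes, 2 carried a peak, in starved lists alone: Eif3c with 53 IP and 4 input reads, and Eif3j1 with 17 to 107 IP reads in its 3′ UTR. Peaks in starved lists alone were held by 1343 of the 6787 protein-coding genes with a peak on an exon. The Eif3j1 peaks of 36 and 107 IP reads, in starved replicate 2, also lie on exons of Spg11. The peak of 17 IP and 0 input reads, in starved replicate 1, lies on Eif3j1 alone. Eif3a, the largest subunit of eIF3, carried none.

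**Figure D4:**
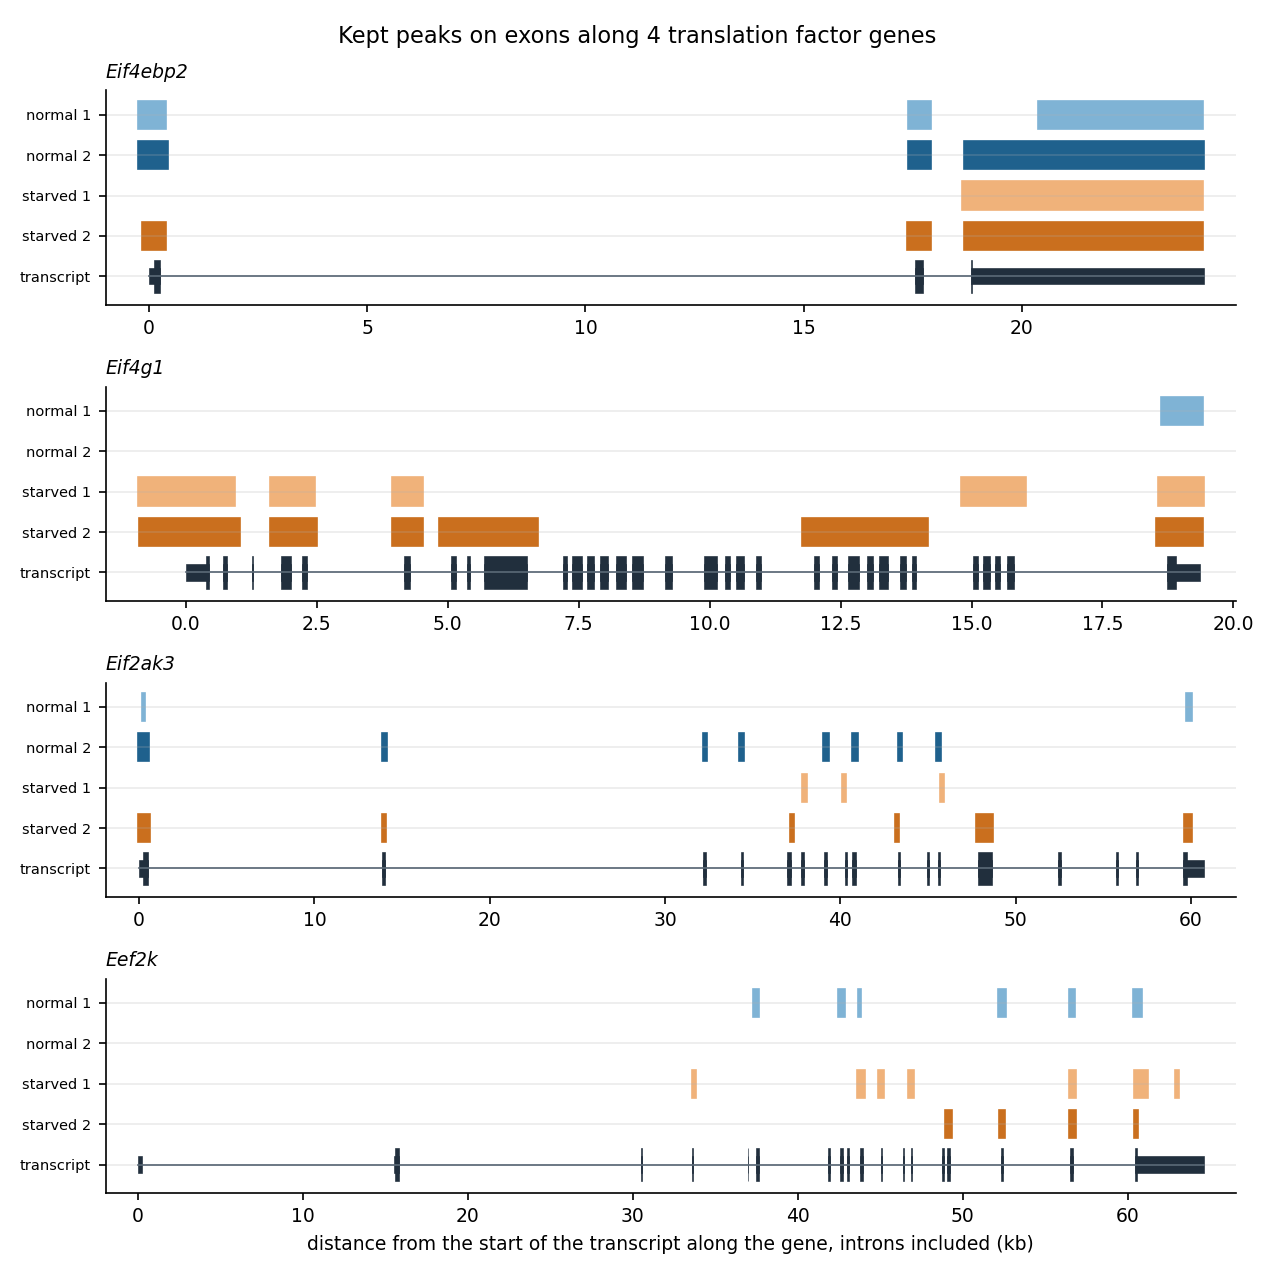
Kept peaks of the 4 IP lists (coloured bars, 1 row per list) are drawn to scale along Eif4ebp2, Eif4g1, Eif2ak3 and Eef2k above the transcript with the longest coding sequence (thick boxes coding, thin boxes untranslated, line introns), with the distance from the transcript start in kb. The 3′ UTR of Eif4ebp2 is covered in all 4 rows, the peaks of Eif4g1 lie in the starved rows apart from 1, and Eif2ak3 and Eef2k have regions called in 3 lists beside others called in 1 list.

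Of the 7 genes of eEF1 and eEF2 subunits, 2 carried a peak on an exon, both in normal lists only. Of the 6787 protein-coding genes with a peak on an exon, 634 had peaks in normal lists only and 1343 in starved lists only. Eef1d, a subunit of the eEF1B exchange complex, had 17 IP and 0 input reads in normal replicate 1 and 36 and 7 in normal replicate 2, with folds of 4.57 (a lower bound) and 5.14. Eef2, the translocation factor, had 173 IP and 48 input reads in normal replicate 2, in a peak that overlaps its exons by 46 bp. The other genes with a peak were Eif1a, Eif1ad, Eif2b4, Eif2d, Eif2s3x, Eif4e2, Eif4h, Eif5a2, Eif5b and Eif6, each with 1 to 4 peaks. Their peaks held 17 to 139 IP reads, and the largest fold was 9.93, in an Eif4e2 region of starved replicate 1. That peak was deposited under the name Efhd1. It lies outside the exons of the Eif4e2 transcript with the longest coding sequence, on an exon of another Eif4e2 transcript. The same holds for the other Eif4e2 peak, for the exons under the Eif1a and Eif2d peaks and for those under the Eif4h peak of starved replicate 2 (24 IP and 0 input reads). The Eif5b peaks also lie on exons of Rev1, 2 of the Eif2d peaks on Rassf5 and 1 of the Eif1ad peaks on Banf1.

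More translation factor genes carried a peak on an exon in the starved lists, with 10 and 7 genes in normal and 17 and 15 in starved MEFs. The groups did not overlap, and the same held for all protein-coding genes, with 4511 and 4338 genes in normal and 5386 and 4916 in starved MEFs. Within replicates 1 and 2 the ratio of starved to normal counts was 1.70 and 2.14 for the translation factors, and 1.19 and 1.13 for all protein-coding genes. With 2 replicates per condition the smallest p of a 2-sided exact permutation test is 0.333, and no test was made. Peaks with at most 3 input reads were 43.6% of the peaks on translation factor exons in starved replicate 1 and 15.8%, 0% and 17.1% in normal replicates 1 and 2 and starved replicate 2. With these peaks left out the ratios were 1.25 and 1.29 for the translation factors and 1.10 and 1.12 for all genes, and with a p-value under 1e-10 they were 1.75 and 0.75 against 1.20 and 1.19. With a fold of at least 4 they were 2.17 and 3.0 against 1.34 and 1.18, and with exons of that gene only 1.78 and 2.17 against 1.19 and 1.10. Of the 79 regions on translation factor exons, 46 were called in starved lists alone and 17 in normal lists alone, whereas 7 were called in both starved and neither normal list and 1 in both normal and neither starved list. Over all 39979 regions 33.9% were called in starved lists alone and 21.0% in normal lists alone. Of all regions 4.70% were called in both starved and neither normal list and 1.30% the other way round, beside 8.86% and 1.27% of the regions on translation factor exons.

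Where a region on a translation factor exon was called under both conditions of a replicate number, its folds could be set side by side. In replicate 1, 7 regions were shared, 2 with a higher and 5 with a lower IP/input fold in starved MEFs and a median log2 difference of -0.07, equal to that of the 9579 shared regions of all genes at this precision. In replicate 2, 6 regions were shared, 3 higher and 3 lower, with a median of -0.08 against 0.03 over 13165 regions. None of them passed 1.8-fold in either replicate, where 929 and 962 of all shared regions did.

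By place within the mRNA, coding sequence held most of the peak's exonic bases for 70 of 112 peaks (62.5%), the 3′ UTR for 24 (21.4%) and the 5′ UTR for 9 (8.04%), beside 67.3%, 17.8% and 8.77% for all protein-coding genes. GGAC was present in the central 200 bp of 43 of the 79 regions (54.4%, 95% Wilson interval 43.5 to 65.0) and of 57.0% of the 36129 regions on protein-coding exons.

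The families differ in size of the mRNA. The transcript with the longest coding sequence had a median of 847 nt and 3 GGAC for ribosomal protein genes, of 2339 nt and 9 GGAC for translation factor genes, and of 2542 nt and 10 GGAC for all protein-coding genes. Per kb these are medians of 3.30, 4.25 and 4.0 GGAC. The longest exon had a median of 292, 758 and 1187 nt. Translation factor genes with a peak on an exon had a median transcript length of 3515 nt and those without one of 1882 nt. Over all protein-coding genes the share with a peak was 4.91% for transcripts of up to 1000 nt, 11.7% for those above 1000 and up to 2000 nt, 33.4% for those above 2000 and up to 4000 nt, and 59.5% for longer ones. Within the shortest class 4 of 55 ribosomal protein genes (7.27%) carried a peak, and in the longer classes 0 of 21, 2 of 5 (40%) and 0 of 1 did. These counts include peaks that also lie on an exon of another gene. In the shortest class this holds for Rpl7a, Rps18 and Rps28 but not for Rps14, and in the third class for Rpl18 but not for Rpl7l1. For the translation factors the shares were 0 of 4, 3 of 24 (12.5%), 11 of 24 (45.8%) and 10 of 16 (62.5%) from the shortest to the longest class. The part of length in the low count of the ribosomal protein genes was not tested beyond these classes.

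**Figure D5:**
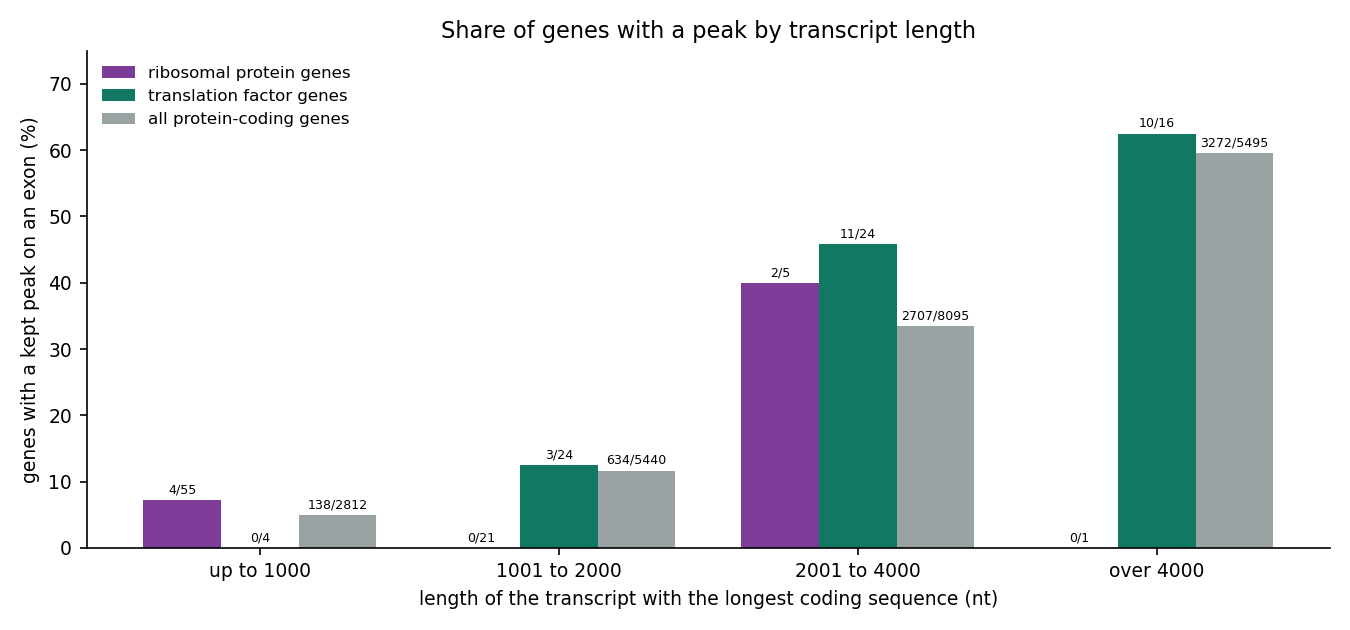
Bars give the percentage of genes with a kept peak on an exon in any list for 4 classes of transcript length (nt), with the number of genes with a peak and the number of genes in the class above each bar. The share rises with length for all protein-coding genes from 4.91% to 59.5%, 55 of the 82 ribosomal protein genes fall in the shortest class, and only 4 of the 68 translation factor genes do.

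Copies elsewhere in the genome also set the families apart. A stretch of at least 50% of the transcript with at least 95% identity lay at another place in the genome for 60 of 82 ribosomal protein genes (73.2%, up to 35 copies of a gene) and for 14 of 68 translation factor genes (20.6%). How reads that match several places were counted is not given in the sources used here, and its part in the missing peaks was not tested.

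In a list of 20 further translation genes that the name rules leave out, 4 (background 31.0%) carried a peak on an exon and 2 of these did so in all 4 lists (background 14.1%). Larp1, which binds the 5′ ends of ribosomal protein mRNAs, had 2 and 7 peaks in normal and 5 and 10 in starved MEFs, with highest folds of 2.23 and 3.75 in normal and of 2.53 and 3.62 in starved MEFs. Larp4b, a poly(A)-associated La-related protein, had 3 and 4 peaks in normal and 7 and 4 in starved MEFs. Rack1, a protein of the small subunit, had a peak in replicate 1 of both conditions with folds of 2.62 in normal and 2.39 in starved MEFs, and Gspt1, a termination factor, had 1 of 30 IP reads in normal replicate 1. No kept peak lay on exons of the ribosomal protein genes Rpsa, Fau and Rpl36al or of the poly(A)-binding protein genes Pabpc1 and Pabpc4.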

How the data were processed

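RIP-seq was performed on polyA RNA of MEFs, and 4 of the 8 libraries, the IP libraries, have a peak list. Per the methods of the study the authors used Trimmomatic for trimming, TopHat for alignment to mm10 (version 2.0.13 in the submitters' processing notes), diffReps for peak calling and HOMER for gene names. The deposited values of normal replicate 2 are counts of reads in each peak, and those of the other libraries are a signal, that is, reads multiplied by 1 factor per library. The log2 of the IP to input ratio and p-values of each peak were also deposited by the authors. After division by this factor 100% of the values were whole reads (tolerance 0.011), and these entered the count tests although the unit is a signal. The lists do not name their inputs, and the input with the same condition and number was assumed.

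Kept peaks were merged with bedtools 2.31.1 and python 3.11.15 code and set against GENCODE vM21 exons. Normal and starved MEFs were compared over the regions common to the 4 lists by edgeR 4.0.16 (quasi-likelihood, TMM, 2 against 2 libraries), in R 4.3.3, with DESeq2 1.42.0 and limma 3.58.1 (pseudocount 1) as alternatives. The edgeR fits were run on simulated reads with a fixed spread and, but for the regions set to change, the same mean per base in each list. Peaks that cover shifted stretches of a region were not part of that check. The 95% intervals of differences come from the SE and those of shares are Wilson intervals, which cover counting error only. Copies were searched with blastn 2.17.0. Named by rule were ribosomal protein genes with a peak on an exon, translation factors with a region in all 4 lists, up to 3 of each role with the highest mean IP reads, and those the study examined as proteins. Alternatives were the normalization, read, fold and p-value minimums, overlap, window, replicate block and leaving out each library. Members, lists and rules were chosen with earlier results of these data known. Peak calls carry no strand, so that overlapping genes cannot be told apart.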

Additional observations from a re-analysis of the deposited data

How the results depend on the processing

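With peaks kept at a p-value under 1e-10, 6 ribosomal protein and 9 translation factor genes carried a peak by name (2 and 1 in all 4 lists) and 1 and 10 by exon (1 translation factor in all 4 lists). By exon these were 1.22% and 14.7% of the 2 families, against 17.1% of all protein-coding genes. At a p-value under 0.0001 the translation factor genes (35.3%) lay above all protein-coding genes (31.0%). With a fold of at least 4, 0 genes of the families had a peak in all 4 lists by either count, and 24.3% of the peaks named after translation factors lay on another gene only. In any list, by exon, 4.88% of ribosomal protein genes and 27.9% of translation factor genes had a peak at this fold, against 24.6% of all genes. Counted by exon instead of by name, 6 ribosomal protein genes carried a peak and 0 did in all 4 lists. Of these, 2 remained with exons of that gene alone and 3 with more than 3 input reads, where 1 translation factor gene had a peak in all 4 lists. Under these 2 settings the ribosomal protein shares were 2.44% and 3.66%, against 28.4% and 25.1% of all genes. With a 100 bp window GGAC was found in 0% of the 3 regions named after ribosomal protein genes.

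Leaving out replicates, 0 to 1 regions named after ribosomal protein genes were at least 1.8-fold higher. This was the Bicral region (named after Rpl7l1) without replicate 2, where the highest peaks lie on different stretches. The Spg11 region (named after Eif3j2) shifted in IP and in input reads without normal replicate 2. Normal replicate 1 covers another stretch of that region. Over the fits with replicates left out, the log2 differences of the IP/input ratio ran from -0.20 to 0.035 for Eif4ebp2. The other regions lie on neighbours, with -0.34 to 0.22 for Rundc1 and -0.45 to 0.0026 for Bicral. The Tut1 region farther from the gene start had -0.40 to 0.22 and Spg11 had -7.20 to 0.19. In IP reads the differences ran from -0.029 to 0.25 for Matn2, -0.20 to 0.28 for Bicral and -0.16 to 1.71 for Spg11. The Tut1 region nearer to the start had -0.63 to 0.0028 and the other had -0.32 to 0.18. In input reads the differences ran from -0.18 to 0.14 for Eif4ebp2, -0.21 to 0.67 for Bicral and -0.23 to 8.85 for Spg11. The Tut1 region farther from the start had -0.12 to 0.19.

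In IP reads the sign turned for the farther Tut1 region with DESeq2 (0.051) and limma (0.26). It also turned for Eif4ebp2 with limma (0.22) and without a length offset (0.13), and for the nearer Tut1 region without that offset (0.52). In input reads the sign turned for Eif4ebp2 with DESeq2 (0.064), limma (0.28), at least 20 reads (0.00099), 50% reciprocal overlap (0.011) and no length offset (0.19). It also turned for the nearer Tut1 region without the offset (0.047). None of these values was called, and the cause was not tested. The scaling of limma moved the median of all regions in IP reads from -0.10 to 0.23. With the replicate block 0 regions of the families were called, and the ratio of Eif4ebp2 differed by -0.10. Of all 6531 regions the block called 1 higher and 0 lower in the IP/input ratio. It called 84 higher and 191 lower in IP reads, and 92 higher and 202 lower in input reads. Without the block these were 6 and 49 in IP reads and 15 and 65 in input reads. Replicate numbers correlated over the 6531 regions (r = 0.27 for the fold, 0.45 for IP and 0.29 for input reads), but 2 pairs do not settle whether they mark a shared batch. Depth limits what can be said of genes without a peak.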
